A study of Mus musculus with 2 samples.

Results

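The BET genes Brd2, Brd3 and Brdt encode proteins that bind acetylated histone tails, and they were read here for ARID4B binding in the newborn mouse testis. The members are these 3 of 21887 protein-coding genes on the assembled chromosomes, and they were chosen from a list of ARID4B intervals whose scores were already known, the high score at Brd2 among them. Every interval overlapping a member's gene record, or lying within 50 kb of it, was counted, which gave 5 of the 6632 intervals in the list. Chromatin came from a pool of 108 testes of wild type mice on a hybrid C57BL6/J and 129/SvEv background at postnatal day 1.5. The pool was immunoprecipitated with an anti-ARID4B antibody, giving 1 ChIP library, and 1 input DNA library from testes of the same strain, genotype and age was the control. No animal carried a deletion or a treatment, so no measurement without ARID4B stands beside these. The library was not replicated, whole testes went into the pool with all their cell types, and the list holds binding and no expression, so the tissue label could not be set against marker genes.

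BET proteins carry a pair of bromodomains, which bind acetylated lysines on histones, and an extraterminal domain, which binds partner proteins. Through them acetylated chromatin is joined to the transcription machinery, including the elongation factor P-TEFb. BRD2 and BRD3 are made in many tissues, while BRDT is the germ cell member, needed for meiosis and for the repacking of chromatin in spermatids. ARID4B belongs to the SIN3-histone deacetylase complex, and deacetylases remove the acetyl groups that BET proteins read.

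The stretch before the start of transcription of each member is shown first, because the intervals at Brd2 and Brd3 cover it and none was found at Brdt. Each line gives the 250 bases before a start listed by RefSeq on mouse build GRCm38.p6, on the gene's own strand. Capitals mark matches to any of 6 sets of letters searched on both strands, which were GGGCGG (GC box), CCAAT (the box of that name), CACGTG (E-box), GCGCATGC (NRF1 core), CCGGAAG (ETS core) and TATAAA (the core of a TATA box). The Brd2 line lies at chr17:34122608-34122857 on the minus strand, the Brd3 line at chr2:27475399-27475648 on the minus strand and the Brdt line at chr5:107330944-107331193 on the plus strand.
Brd2: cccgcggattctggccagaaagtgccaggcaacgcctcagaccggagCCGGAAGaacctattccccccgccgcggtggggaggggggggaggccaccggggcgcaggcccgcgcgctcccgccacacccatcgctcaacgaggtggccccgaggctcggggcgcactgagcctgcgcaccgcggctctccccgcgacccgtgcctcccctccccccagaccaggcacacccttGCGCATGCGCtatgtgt
Brd3: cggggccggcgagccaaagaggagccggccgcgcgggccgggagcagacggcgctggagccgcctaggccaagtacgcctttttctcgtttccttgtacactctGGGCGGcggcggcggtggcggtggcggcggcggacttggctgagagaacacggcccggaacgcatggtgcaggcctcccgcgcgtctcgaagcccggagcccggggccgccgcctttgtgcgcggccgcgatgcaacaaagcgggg
Brdt: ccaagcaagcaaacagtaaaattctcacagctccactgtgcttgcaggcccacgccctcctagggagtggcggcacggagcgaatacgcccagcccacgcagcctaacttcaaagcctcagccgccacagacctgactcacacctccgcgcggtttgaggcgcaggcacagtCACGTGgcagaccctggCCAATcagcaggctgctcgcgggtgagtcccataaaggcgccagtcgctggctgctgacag

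Brd2 had one of the highest-scoring and widest ARID4B intervals in the list. It lay at chr17:34117800-34123221, was 5422 bp wide and carried the authors' score of 1314.68, rank 5 by score and rank 3 by width among 6632 intervals. Over the whole list the scores ran from 70.02 to 1760.61 with a median of 125.0, and the median width was 1084 bp. The score is the authors' own value for an interval. Neither its scale nor its direction is stated, and ranks here count from the largest value, on the assumption that larger means stronger evidence. Among the 10 best-scoring intervals the widths ran from 2443 to 5930 bp, and among the 10 widest the scores ran from 222.85 to 1584.47, so a wide interval did not always carry a score as high as that of Brd2.

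**Figure D1:**
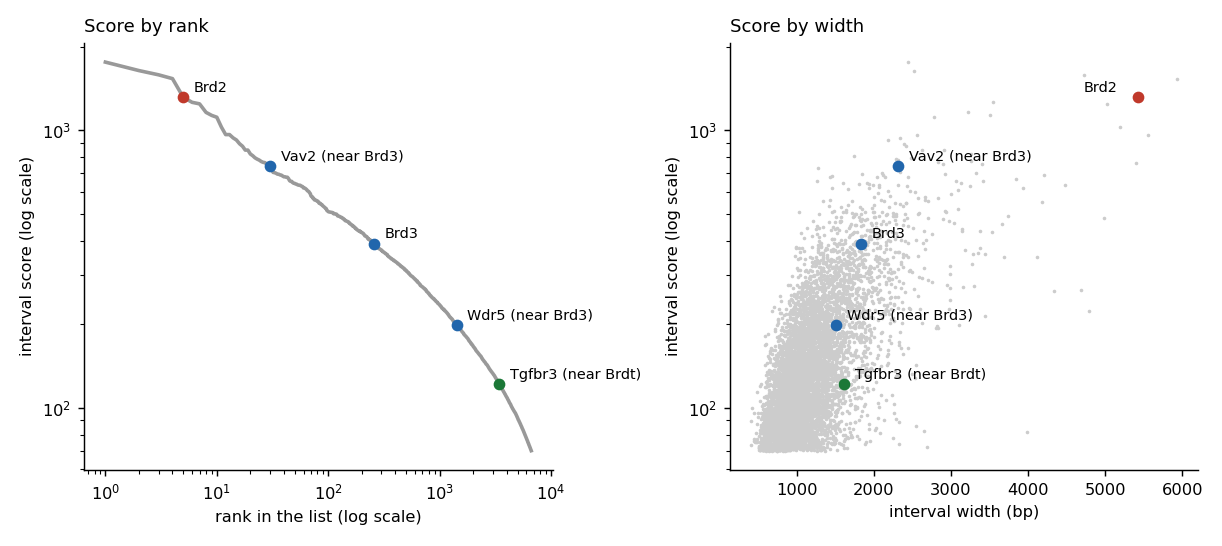
The left panel plots the score of all 6632 intervals against their rank (both axes logarithmic), and the right panel plots score (logarithmic) against width in bp, with the 5 intervals in or within 50 kb of a BET gene coloured (red for Brd2, blue for Brd3, green for Brdt). Brd2 sits at the upper right of the width panel with 1314.68 and 5422 bp, and Brd3 at rank 258 with 390.42.

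The Brd2 interval covered all 3 listed starts of Brd2 and the first listed start of its neighbour. The Brd2 starts lay at positions 34122607, 34121747 and 34119900 of chromosome 17, spread over 2707 bp. The interval reached 614 bp upstream of the outermost of them and 2100 bp downstream of the innermost, and it lay over 5015 bp (46.5%) of the 10796 bp gene record (chr17:34112019-34122814). H2-DMa, which encodes a chain of the chaperone that loads peptides onto MHC class II molecules, starts on the opposite strand at position 34122832, 225 bp from the outermost Brd2 start, and the interval ended 389 bp beyond that start. The H2-DMa record (chr17:34119693-34139101) shared 3122 bp with the Brd2 record, and the lower end of the H2-DMa record also lay inside the interval. The interval can therefore not be given to either gene alone. The 250 bases before the outermost Brd2 start and before the first H2-DMa start shared 224 bases. The second listed H2-DMa start lay 2.3 kb outside the interval.

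Such an interval was uncommon. On the chromosomes for which starts were listed, 36 of 6448 intervals (0.558%) held 4 or more listed starts, and the Brd2 interval, with 4 starts of 2 genes, had the highest score among those 36. Their median score was 160.5 and their median width 1560 bp, against 127.6 and 1098 bp for the 3031 intervals holding 1 start. Genes with a divergent start of another gene within 1 kb, as Brd2 and H2-DMa have, carried an interval at a start in 757 of 1483 cases (51.0%), and the other genes with a listed start in 4139 of 16009 (25.9%). Both genes of such a pair can be counted through the same interval, as Brd2 and H2-DMa were, so these genes are not independent. The difference was not tested, nor was the part of CpG content in it.

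Brd3 had an interval of its own, narrower and lower in score than that of Brd2. It lay at chr2:27474674-27476506 (1833 bp, score 390.42), which is rank 258 and among the best 3.89% of the list. It contained the single listed start of Brd3 at position 27475398, reaching 1108 bp upstream and 724 bp downstream of it, with its midpoint 192 bp upstream. No end of any other gene record and no start of another gene lay within 1 kb. The Brd3 record runs over 62082 bp (chr2:27445576-27507657), and the interval lay 31.2 kb from its higher end and 29.1 kb from its lower end.

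Because of that position, the number of BET genes with an interval turned on how a gene was counted. Within 1 kb of either end of the gene record 1 of the 3 genes had an interval, Brd2, where 27.1% of all protein-coding genes did. Within 1 kb of a listed start 2 of the 3 had one, Brd2 and Brd3, where 28.0% of the 17492 protein-coding genes with a listed start did. Overlap with the record itself gave the same 2 genes, against 29.6% of protein-coding genes. Brd3 was one of 448 protein-coding genes (2.56% of those with a listed start) that had an interval at a listed start and none at an end of the record. Brd2 was one of the 4448 (25.4%) with both. These shares describe the list and no more, since the genes were chosen with its scores known.

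Brdt had no interval in its record or at its start. Its record covers 55946 bp (chr5:107331116-107387061) and its single listed start is at position 107331194. The nearest interval lay 41.2 kb below the record, at chr5:107288271-107289882, with a score of 121.57, just under the median of the list. It covered the higher end of the record of Tgfbr3 (position 107289629), which encodes a TGF-beta co-receptor. No listed start lay within 1 kb of the interval. Only 17492 of 21887 protein-coding genes had a listed start, so this does not tell which end of Tgfbr3 was covered. Since the depth of the libraries is unknown, Brdt can only be said to lack an interval at or above the lowest score listed, 70.02.

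**Figure D2:**
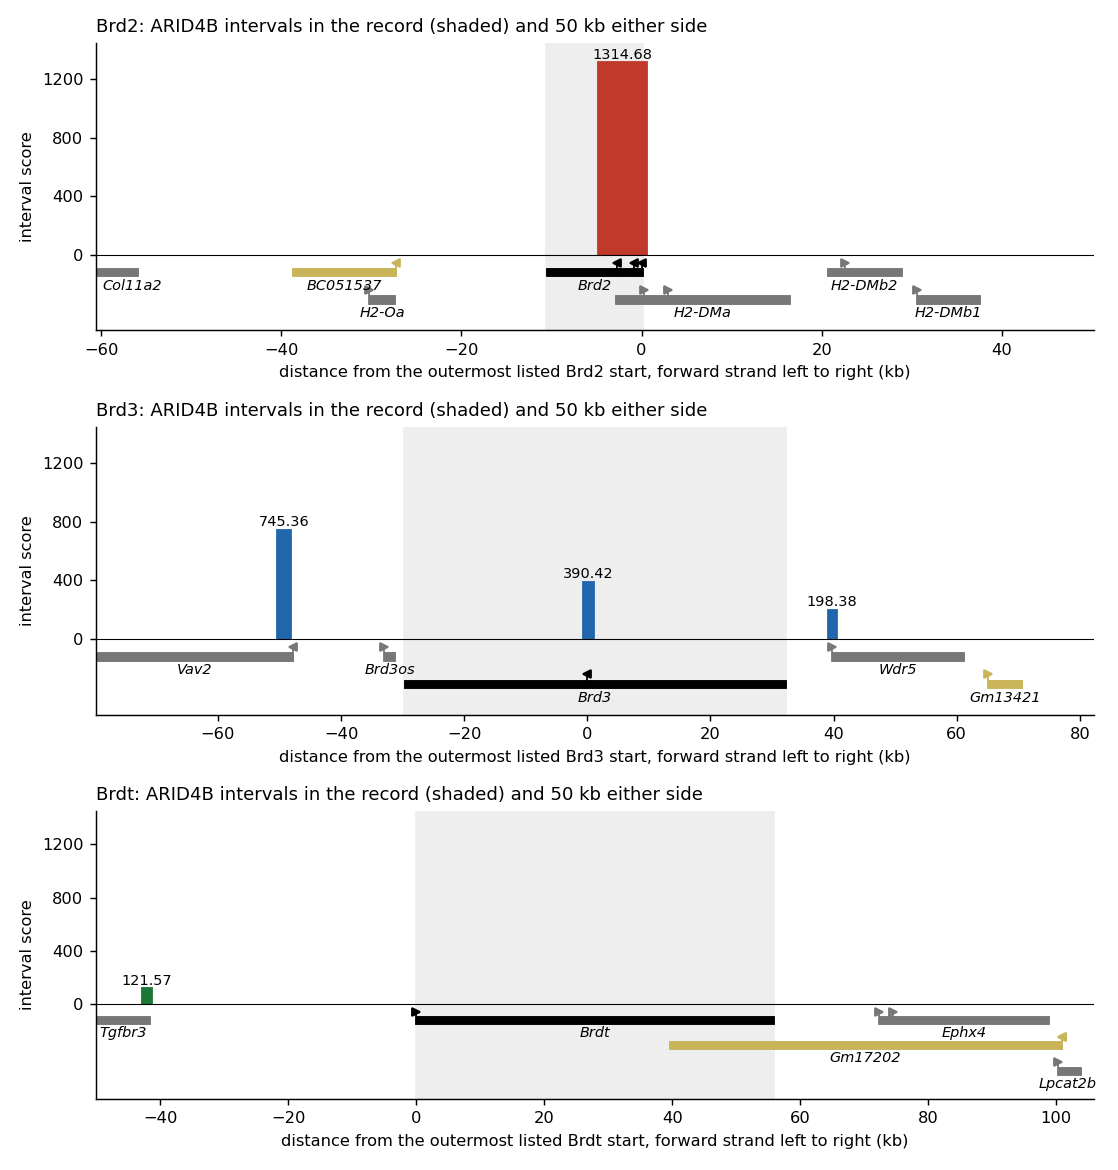
Intervals (coloured blocks, height the score) in the record of Brd2, Brd3 and Brdt and 50 kb either side, by distance in kb from the outermost listed start, with the record shaded. Bars below are records of the member (black), other protein-coding genes (grey) and long non-coding RNA genes (yellow), arrows mark listed starts and their strand. The intervals of Brd2 (1314.68) and Brd3 (390.42) stand on listed starts, and the Brdt panel holds only a block of 121.57 at the higher end of the Tgfbr3 record.

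Within 50 kb of the records the members held 1, 3 and 1 intervals (Brd2, Brd3 and Brdt). All 3 genes thus had at least 1, as did 52.3% of protein-coding genes, whose median was 1 and whose highest number was 11. At least 3 intervals, as at Brd3, were found for 11.9% of protein-coding genes. A longer record widens the stretch searched, that of Brd3 is 62082 bp, and this share was not adjusted for length. Per 100 kb searched the members had 0.903, 1.85 and 0.641 intervals (Brd2, Brd3 and Brdt). Next to Brd3 the interval at chr2:27514442-27515953 (score 198.38) contained the start of Wdr5, which encodes a subunit of histone H3 lysine 4 methyltransferase complexes. On the other side the interval at chr2:27424996-27427310 scored 745.36, rank 30 of the list, and lay inside Vav2, a guanine nucleotide exchange factor gene, from 298 to 2612 bp downstream of its start. It was the highest score near Brd3, above that of Brd3 itself. Brd3os, whose record ends 1.35 kb from that of Brd3, had no interval at an end, the nearest lying 15.1 kb from its start.

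The limit of 50 kb fell in a wide gap at each member. At Brd2 the nearest interval beyond it lay 79.5 kb from the record, at the shared ends of Rxrb, Slc39a7 and H2-Ke6 (score 348.04). At Brd3 the farthest interval inside the limit was 18.3 kb away and the next outside 168.5 kb, at Rxra (93.25). At Brdt the corresponding distances were 41.2 kb and 366.0 kb, the latter at Cdc7 (96.18), which encodes a kinase of DNA replication.

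The intervals nearest to that of Brd2 were far from it. The next interval lay 85.3 kb away on the lower side and 463.3 kb away on the higher side. Of 13 listed genes of the MHC class II region, 1 had an interval at an end (7.69%, 95% Clopper-Pearson interval 0.195 to 36.0%), and that was H2-DMa through the interval shared with Brd2. The share over all protein-coding genes was 27.1%. These 13 genes lie in 1 region and are not independent, so the confidence interval cannot be used to judge the difference. Whether they have intervals less often was not tested. H2-DMb1, H2-DMb2, H2-Oa, H2-Ob, H2-Aa, H2-Ab1, H2-Eb1 and H2-Eb2, which encode class II chains and their chaperones, had none, nor did the peptide transporter genes Tap1 and Tap2 or the immunoproteasome genes Psmb8 and Psmb9. Of the protein-coding records within 50 kb of Brd2, Col11a2, H2-Oa, H2-DMb2 and H2-DMb1 held no interval anywhere in the record. Around Brdt the same was true of Ephx4 and Lpcat2b.

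The sequences shown above differed in CpG content. The 250 bases before the Brd3 start held 37 CpG dinucleotides and 73.2% G and C, and 98.1% of the 32851 listed starts had as many CpGs or fewer. Those before the outermost Brd2 start held 27 CpGs and 73.6% G and C (92.4% of starts had as many or fewer), and those before the other Brd2 starts held 12 and 18. Brdt had 16 CpGs and 62.4% G and C (76.5% had as many or fewer). Over all listed starts the share with an interval within 1 kb went from 0.31% of those with no CpG (8 of 2584) to 66.0% of those with 30 to 56 (1288 of 1952). Among starts with 15 to 19 CpGs, where Brdt falls, 40.8% had an interval (1255 of 3074). Starts of 1 gene or of neighbouring genes can share an interval, so these starts are not independent.

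**Figure D3:**
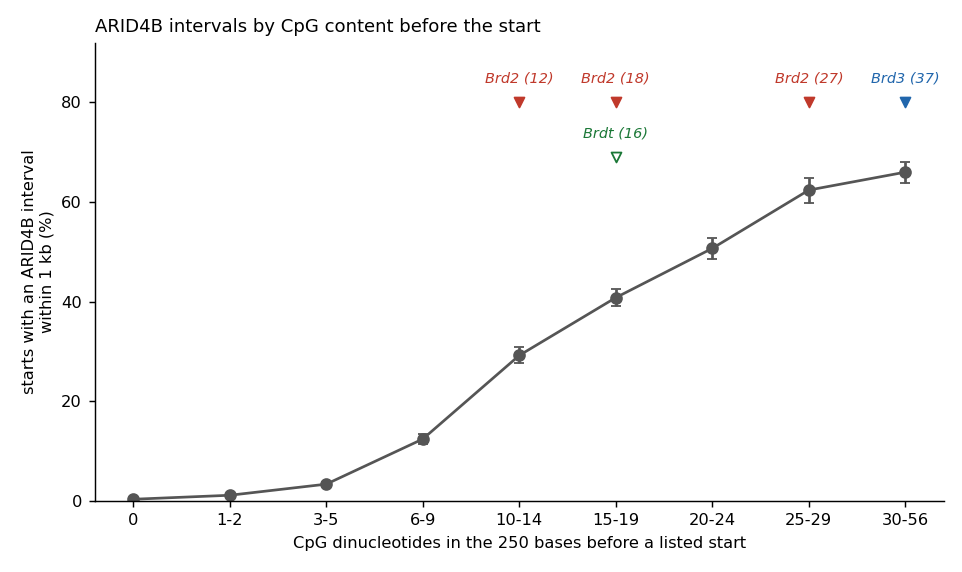
Share of listed starts with an ARID4B interval within 1 kb (vertical axis, %) by the number of CpG dinucleotides in the 250 bases before the start (horizontal axis), with 95% Clopper-Pearson bars for counting error. Triangles place the 5 BET starts by their CpG number in brackets (their height has no meaning), filled with an interval and open without, and the open triangle of Brdt (16) stands over a class in which 40.8% of starts had one.

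The matches in capitals also differed between the members. Before the outermost Brd2 start the NRF1 core GCGCATGC was found on both strands at overlapping positions, 17 to 10 and 15 to 8 bases before the start, and the ETS core CCGGAAG at 203 to 197 bases. Because the window is shared, the same letters lay before the first H2-DMa start, the NRF1 core at 217 to 208 bases and the ETS core at 28 to 22. The NRF1 core was present in 2.26% of the 250-base windows before all listed starts and the ETS core in 6.91%. Brd3 had a GC box at 146 to 141 bases, and the middle Brd2 start had one at 96 to 91 bases, where 32.7% of windows held these letters. Brdt had an E-box at 78 to 73 bases and a CCAAT box at 61 to 57, found in 6.02% and 33.8% of windows. The TATA letters TATAAA, present in 12.4% of windows, were in none of the 5 BET windows. A match is only a match of letters, and binding of the named factors was not measured.

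Starts with the NRF1 letters had an interval within 1 kb in 42.5% of cases, and starts without them in 19.4%. For the GC box the shares were 41.7% and 9.36%, for the ETS core 42.1% and 18.3%, and for the E-box 31.4% and 19.2%. Of the letters that hold no CpG, the CCAAT box had 18.6% and 20.7%, and TATAAA 7.7% and 21.7%. The part of CpG content in these differences was not tested.

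Among the bromodomain genes listed for comparison, Brd2 had the highest score and Brd3 the fourth. Counting an interval at a record end or a listed start, 29 of 39 genes had one. The 27 outside the BET family had best scores from 86.3 to 505.91 with a median of 174.1, and their widest best interval was 2095 bp. Trim28, the corepressor of KRAB zinc finger proteins, had 505.91 and Ep300, a histone acetyltransferase, 488.61. Next below Brd3 was Brwd1, a bromodomain and WD repeat gene needed in gametes, with 366.52, followed by Atad2b with 344.26 and Baz1b, a chromatin remodelling gene, with 322.52. Atad2b and Phip (287.92) resembled Brd3 in having an interval at a listed start and none at an end of the record, and were picked out after their values were seen. Besides Brdt, Baz1a, Bptf, Brwd3, Sp100, Sp110, Sp140, Taf1, Trim66 and Zmynd8 had none by this count.

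**Figure D4:**
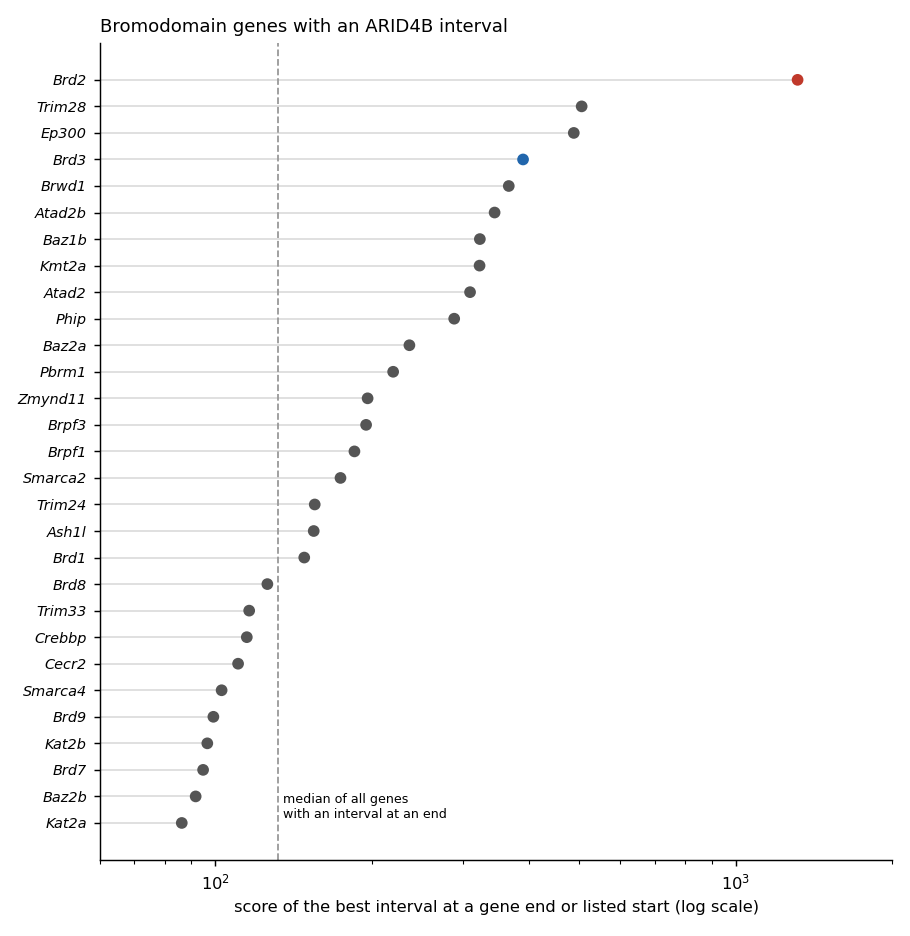
Score of the best ARID4B interval at a gene end or listed start (horizontal axis, logarithmic) for the 29 bromodomain genes that had one, with Brd2 in red, Brd3 in blue and the others grey. The dashed line is the median of all protein-coding genes with an interval at an end, 132.2, and Brd2 lies at 1314.68, apart from Trim28 at 505.91.

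Intervals were frequent at bromodomain genes in general. By record ends 25 of the 36 genes outside the BET family had one (69.4%, 95% Clopper-Pearson interval 51.9 to 83.7%), beside the 27.1% of all protein-coding genes. Their median best score by record ends was 154.7, beside 132.2 over the 5930 protein-coding genes with an interval there. No list was tested against random draws, and the background holds genes of all expression levels.

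Genes that act with BET proteins also had intervals often, with scores near the median over all genes. Of 16 genes of P-TEFb, its inhibitory 7SK particle and the super elongation complex, 12 had one at a record end, with a median of 129.0. That is 75.0% (95% Clopper-Pearson interval 47.6 to 92.7%), beside 27.1% of all protein-coding genes. Cdk9, the kinase of P-TEFb, had 248.01, its cyclin partner gene Ccnt1 130.82, and the scaffold genes Aff4 and Aff1 had 211.99 and 152.95. At its listed start Aff1 had a higher score, 261.99, above that of Cdk9. Mepce, which caps the 7SK RNA, had 142.36. Ccnt2, Hexim2, Ell3 and Eaf2 had none at an end, though Hexim2, one of the P-TEFb inhibitor genes, had an interval of 121.97 within its record.

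All 5 listed partners of the extraterminal domain had an interval at a record end (95% Clopper-Pearson interval 47.8 to 100%), beside 27.1% of all protein-coding genes. Chd4, the remodelling ATPase of the NuRD complex, had 335.49 near a record end but outside the record, and 330.4 at its listed start. Bicra had 139.8, Jmjd6 131.37, and the methyltransferase gene Nsd3 78.04, near the lowest score of the list. Of 10 lysine acetyltransferase genes, whose products write the marks that BET proteins bind, 8 had one, with a median of 111.7. That is 80.0% (44.4 to 97.5%), beside the same 27.1%. Ep300 led with 488.61, Kat6b had 332.51, Kat6a 202.06 and Crebbp 115.06, while Kat7 and Kat8 had none. Kat2a, Kat2b, Ep300 and Crebbp are also among the bromodomain genes above.

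Genes next to Brd2 and Brd3 in score were not bromodomain genes. By the best interval at a record end, Hic1 and Smg6, which share an interval of 1584.47 (4730 bp), and the corepressor gene Irf2bp2 (1641.15, 2523 bp) stood next above Brd2. Mex3b, an RNA-binding protein gene (1245.12, 5027 bp), and Tsc22d2 (1160.13, 3224 bp) stood next below. Their intervals held 0 or 1 listed start each, where that of Brd2 and H2-DMa held 4. By listed starts, Plxnc1 (390.91) and its ligand gene Sema7a (390.72) stood next above Brd3, and Anks1 and Taf11, which share an interval of 388.7, and Kpna2 (388.16) next below. With 1 library, differences this small have no replicate error to be set against.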

How the data were processed

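ARID4B ChIP-seq of 1 pool of postnatal testes was read beside 1 input library. The submitters' processing notes name BWA, MACS and build mm9, and no version, parameter or filter is known. The authors deposited 1 interval list with a score for each interval, and its name gives mm10 and calls the score a p-value, although every value exceeds 1. Depth is unknown. Scores were used only to describe and rank intervals, the largest first, a direction that no source states.

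Positions were compared with RefSeq tables of GRCm38.p6 (the build also called mm10). An annotated start lay within 1 kb of 74.7% of 6448 intervals in place and of 5.58% or 5.78% of them after a shift of 5 kb, so the list was read as GRCm38, and positions are printed counting from 1. A gene was counted when at least 1 bp of an interval fell within 1 kb of a record end, or of a start in the RefSeq promoter table. All 3 members had a listed start, and all 79 listed genes matched by symbol. Exons and protein identity were not analysed here.

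Members and lists were chosen with earlier results of these data known. Named were the members, genes with an end within 1 kb of a member's interval or a record within 50 kb of a member, the best 4 of each list, absent genes in lists of up to 20, and the 2 scores next above and below a member. Ccnt1, bromodomain genes beyond the best 4 and the neighbours of Brd3 in score were named after their values were seen, as were the relatives of neighbouring genes in the closing section, of which 1 family is not reported here. There was no test, since there is 1 library. Intervals on shares (95% Clopper-Pearson) cover counting error only. As alternatives, intervals with scores above the median, midpoints, windows of 5 kb and 500 bp, listed starts, the whole record, and flanks of 10 kb and 100 kb were tried. The overlap step was tested on simulated data. Python 3.11.15, pandas 2.3.3 and SciPy 1.17.1 were used.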

Additional observations from a re-analysis of the deposited data

How the results depend on the processing

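Of 48 recomputed counts, 38 stayed within 1.5 times the count reported and 10 did not. The number of BET genes with an interval was 1 by record ends, 2 by listed starts, 2 anywhere in the record or within 1 kb, and 0 when the midpoint had to lie within 1 kb of an end, since the midpoint of the wide Brd2 interval lies 2304 bp inside the record. Among intervals scoring above the median the counts were 15 bromodomain genes outside the BET family (25 with all intervals), 3 lysine acetyltransferase genes (8), 3 extraterminal domain partners (5) and 0 intervals near Brdt (1), while the share of all protein-coding genes went from 27.1% to 14.8%. By listed starts 3 of the partners had one, all of the 3 with a listed start. With a flank of 100 kb Brd2 had 4 intervals, and with 10 kb Brdt had 0. No paired analysis was possible because there is 1 ChIP library and no test. Without replicates or depth, neither the error of a score nor the weakest binding that the list could hold is known.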

Other observations

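Brd2 and Brd3 lie in regions of the genome known to be related, in which members of several gene families sit beside each other, and the intervals nearest to both genes beyond 50 kb were at retinoid X receptor genes. This was seen in the data and the 9 genes below were written down afterwards, so it is a description with no test. Rxrb, 0.0736 Mb from Brd2, had an interval of 348.04 shared with Slc39a7 and H2-Ke6, and Rxra, 0.169 Mb from Brd3, had a pair of intervals, the higher scoring 149.11. Rxrg, the relative on chromosome 1, had none.

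The 3 listed Notch receptor genes each had an interval, with 227.39 at Notch4 (0.441 Mb from Brd2), 213.47 at Notch1 (0.942 Mb from Brd3) and 159.57 at Notch2 on chromosome 3. Notch2, like Rxrg, does not lie near Brdt, which is on chromosome 5. The fibrillar collagen genes differed between the regions. Col5a1 (166.29), 0.379 Mb from Brd3, had an interval, while Col11a2 near Brd2 and Col11a1 on chromosome 3 had none at an end or a listed start. Of the BET genes themselves, Brd2 and Brd3 had an interval and Brdt had none.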
